A study of Homo sapiens with 3 samples.

Results

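Receptor tyrosine kinases are the cell-surface receptors that read growth factors, and 49 of their genes, including the 9 whose products are known targets of sunitinib, were followed in TK-10, a cell line from human renal cell carcinoma. The members were chosen by gene name, as every array probe whose RefSeq accession belongs to one of the 49 genes. They were 49 of 22439 genes that could be named on the array, with 76 of its 58201 gene probes, and 19 members had several probes. There were 3 single-colour Agilent arrays, 1 for each of 3 cultures harvested after 48 h. The control culture had received 0.1% DMSO, another cordyceps at 750 μg/ml, and the remaining one sunitinib at 10 μM. The study's methods name cordycepin, an adenosine analogue from Cordyceps fungi, at a lower dose than the label gives for cordyceps, so the array is called here by its label. Every culture, the control included, was grown in DMEM to which nicotinamide had been added at 10 mM, zinc sulfate at 16.7 μM and troglitazone, an agonist of PPARG, at 10 μM, beside fetal bovine serum (10%) and penicillin-streptomycin (1%). With 1 array per group and 1 cell line there was no replicate, so no test was possible and no difference given here has a replicate check.

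A receptor tyrosine kinase binds its ligand outside the cell, pairs with a second receptor and phosphorylates tyrosines on its own tail, where adaptors such as GRB2 and SHC1 dock and start the RAS-MAPK and PI3K-AKT pathways. Phosphatases, ubiquitin ligases such as CBL and feedback proteins of the Sprouty family end the signal. In clear cell renal carcinoma, loss of VHL raises VEGF, and sunitinib, which competes with ATP in the kinase domain, is given against the VEGF and PDGF receptors of the tumor vessels. MET and AXL are expressed by the carcinoma cells themselves.

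Signals are the processed intensities of the scanner software in its own units, and a probe counts as detected where the software called it well above background. Ratios are differences of log2 signal after each array was set to its 75th percentile, which was 165 on the control, 138 on the cordyceps and 78.2 on the sunitinib array. The sunitinib array was thus the dimmest, and a receptor with a lower signal there could have a ratio above 1. Scaling to the median moved the median of all genes by 0.18 for cordyceps and by -0.31 for sunitinib on the log2 scale, and no scaling by -0.24 and -1.06. Probes differ in how well they bind, so levels were compared between arrays and never between receptors. The error of a ratio is the software's error for both signals combined, as 1 SD on the log2 scale. It covers the measurement of the spots and not the spread between cultures.

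Of 6 markers listed as renal epithelial, 5 were detected on each array (PAX8, PAX2, KRT8, KRT18 and EPCAM, but not CDH1). Of all genes, 65.4% were detected on the control, 58.6% on the cordyceps and 59.1% on the sunitinib array. Of 4 endothelial markers 2 were detected on each array, and PECAM1 and CLDN5 on none. Of 4 leukocyte markers 2 were detected on the control and sunitinib arrays and 1 on the cordyceps array (CD68 had no named probe). Of 4 fibroblast, pericyte and smooth muscle markers 3 were detected on each array, so these counts do not by themselves identify the cell type. In such bulk RNA, fewer cells that express a receptor and less of its RNA per cell cannot be told apart. The cordyceps array had a bright streak, in which windows of 7 by 7 spots were brighter than on both other arrays, and 581 spots lay in them. Probes of 3 members, KIT, ERBB3 and FGFR1, were among these.

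Of the 49 receptors, 30 (61.2%) were detected on at least 1 array, against 66.9% of all genes. The number was 26 on the control, 25 on the cordyceps and 24 on the sunitinib array, and 20 (40.8%) were detected on every array, against 55.7% of all genes. The other 19 were detected on none: KDR, FLT1, FLT4, FLT3, KIT, PDGFRA, INSRR, EPHA1, EPHA3, EPHA7, EPHB3, EPHB6, DDR2, TEK, NTRK2, ROR2, ALK, ROS1 and MUSK. Their 28 probes read 3.68 to 9.03 on the control, 6.14 to 32.7 on the cordyceps and 3.73 to 18.4 on the sunitinib array. No ratio was computed for them. By the software's other flag, positive and significant against background, 9 of the 19 had a probe that passed on some array. A signal not well above background gives an upper limit and does not show that the transcript was absent.

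**Figure D1:**
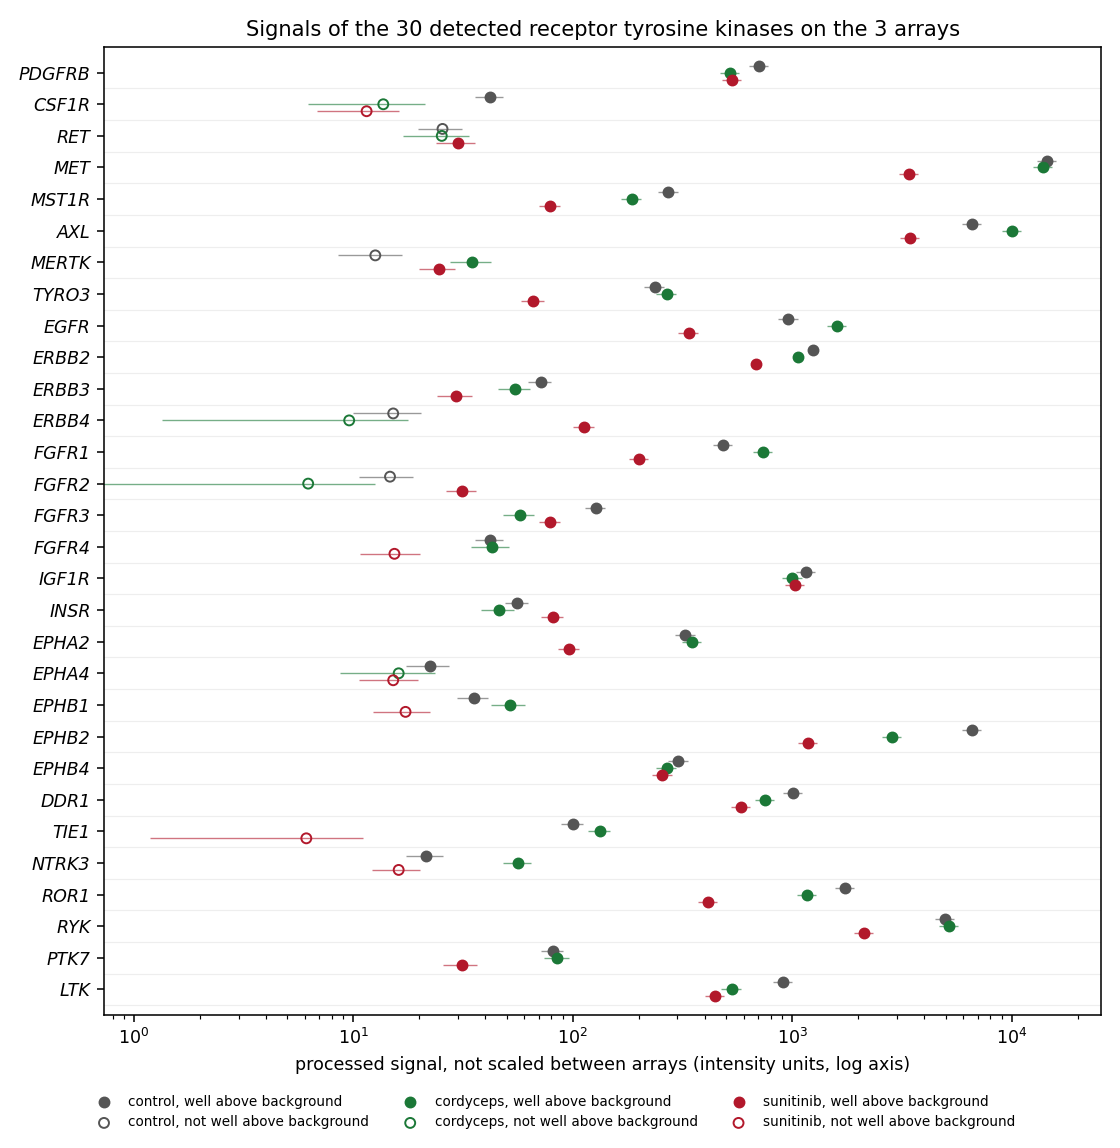
Processed signals (horizontal log axis, intensity units, not scaled between arrays) of the 30 receptors detected on at least 1 array. Each point is 1 array, filled where the probe was well above background and open where it was not, and bars are 1 SD of the software's error (the bar of FGFR2 on the cordyceps array runs past the left edge, since the error exceeds the signal). MET and AXL stay between 3418 and 14432 on every array, while ERBB4, FGFR2 and RET have a filled point on the sunitinib array only.

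Among the known targets of sunitinib, 3 of 9 were detected on some array, against 27 of the other 40 receptors. None of the VEGF receptors was detected. KDR, the main signaling receptor for VEGFA on endothelium, read 4.74 on the control, 7.98 on the cordyceps and 4.75 on the sunitinib array. FLT1, which also binds PGF and VEGFB, read 8.30, 6.75 and 4.11 in the same order, and FLT4, the VEGFC receptor of lymphatic vessels, read 9.03, 6.63 and 7.72. These 9 signals lay below the lowest signal of any detected probe on their arrays, which was 18.2, 30.2 and 18.3.

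The class III receptors, a family with split kinase domains, were unlike each other. PDGFRB, the PDGF receptor of pericytes and fibroblasts, was the one family member detected on every array, with signals of 706 on the control, 520 on the cordyceps and 532 on the sunitinib array. Its log2 ratio was -0.19 ± 0.21 for cordyceps and 0.66 ± 0.20 for sunitinib, where the sign turned to -0.41 with no scaling. A second PDGFRB probe gave -0.27 and 0.49. CSF1R, the receptor of macrophages for CSF1, read 41.9 on the control array, where it was detected, and 13.7 and 11.5 on the treated arrays, where it was not. After scaling, the floors of the treated arrays were close to the control signal, and the ratio could only be bounded, at a log2 ratio of -0.22 or lower for cordyceps and -0.12 or lower for sunitinib. It was past 2-fold for sunitinib with no scaling (-1.19) and for cordyceps with no filter or floor (-1.36). Genes that in tissue mark the cell types carrying these receptors moved apart in these cultures of 1 cell line. For sunitinib the log2 ratio was -2.71 for COL1A1, 1.32 for ACTA2 and 0.53 for RGS5, beside the pericyte receptor PDGFRB, and 2.39 for PTPRC and -1.50 for CD14, beside the macrophage receptor CSF1R. For cordyceps it was -2.06 for COL1A1, -0.33 for ACTA2, 0.54 for RGS5 and -0.64 for CD14, and PTPRC had no ratio. PTPRC read 18.4 on the control array, just over its floor of 18.2. Any link between these genes and the values of PDGFRB and CSF1R was not tested. FLT3 read 6.01, 7.43 and 4.51, and PDGFRA read 4.11, 6.74 and 4.07, all undetected. KIT, the receptor for stem cell factor, read 4.84, 31.1 and 4.70 on its brightest probe, which lay in the streak on the cordyceps array and was not well above background there. The other KIT probes read 6.30 and 6.91 on that array.

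RET, the GDNF receptor that guides branching of the embryonic kidney, was detected on the sunitinib array alone. Its signals were nearly level, at 25.5 on the control, 25.3 on the cordyceps and 29.9 on the sunitinib array. After scaling, sunitinib over control was 2.47-fold (log2 ratio 1.31 ± 0.43). The undetected control signal lay above that array's floor of 18.2 and was used itself in place of the floor. The ratio therefore rests on a control signal that was not well above background. A second RET probe stayed between 4.03 and 6.78. The RET ratio was past 2-fold in 6 of 10 alternative settings, and fell to a log2 ratio of 0.98 with median scaling, 0.71 with another background correction (normexp), 0.35 with the mean of all probes of the gene and 0.23 with no scaling.

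In the sunitinib comparison 30 receptors were compared, and 8 differed from control by more than 2-fold, 5 above it and 3 below. Over all 14897 genes compared, 13.0% passed this limit, 6.44% above control and 6.52% below. The receptors above the limit were ERBB4, FGFR2, INSR, MERTK and RET, and those below it EPHB2, TIE1 and MET. Of the 5 higher receptors, INSR was detected on both arrays. The other 4 were undetected on the control array, and a bound is given, or for RET the ratio of its signals. These 4 were compared only because the sunitinib array detected them, and TIE1 only because the control array did. Over the 30 receptors the median log2 ratio was 0.00, with quartiles of -0.41 and 0.59, and that of all genes was 0.00. The split depended on the scaling: 4 receptors were higher and 7 lower with median scaling, and 1 higher and 15 lower with none. For all genes it moved from 959 higher and 971 lower to 523 and 1934 with median scaling, 161 and 8010 with none, and 326 and 842 with normexp. Of the 20 receptors detected on both arrays, 12 lay outside the 95% limit of their combined error (60.0%), 5 of them higher and 7 lower, against 45.2% of all genes. Of these 20 receptors, 1 was more than 2-fold higher and 2 lower, against 721 and 750 of the 12986 genes detected on both arrays.

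**Figure D2:**
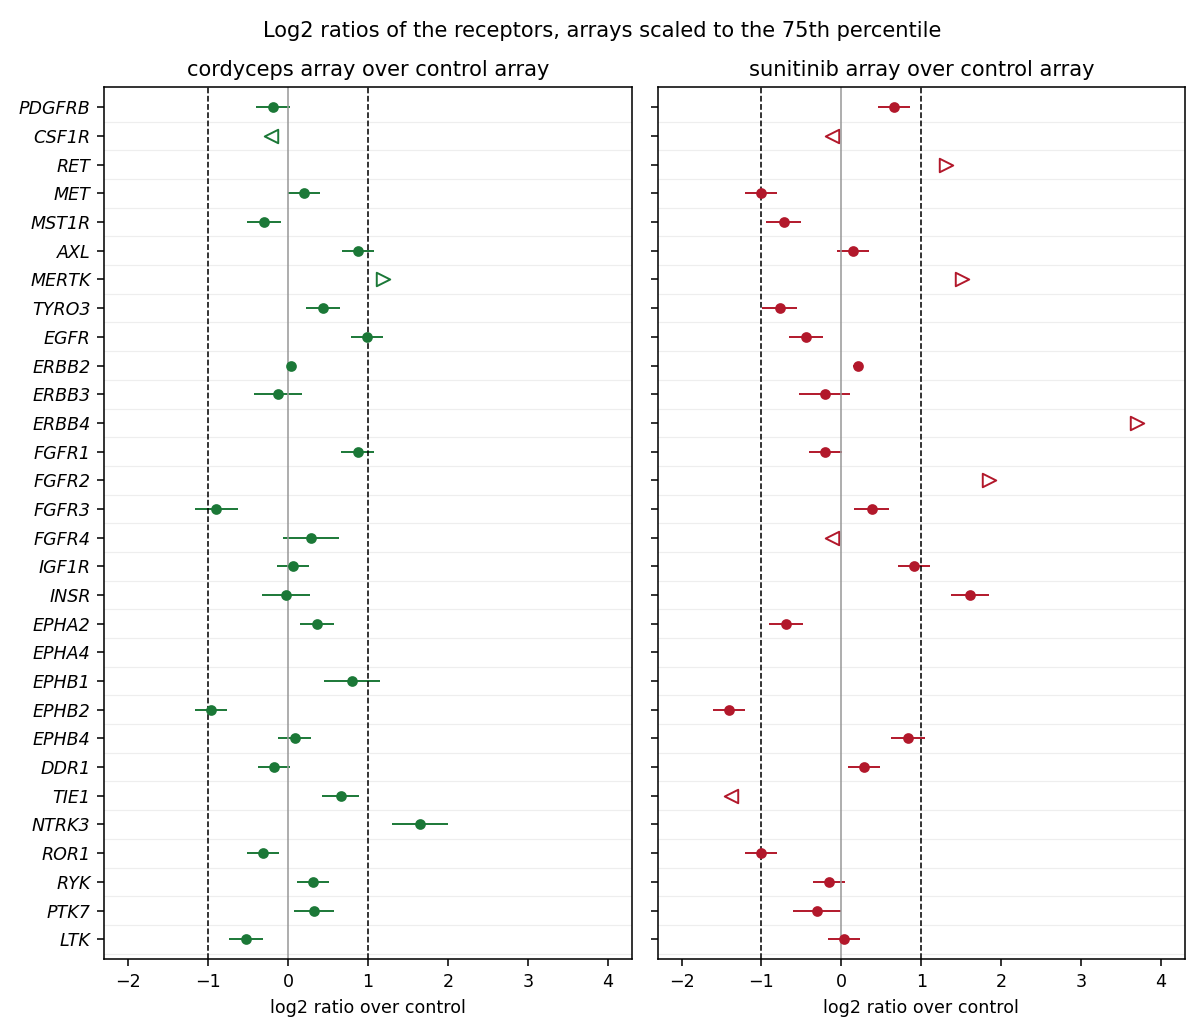
Log2 ratio over control (horizontal axis) of each receptor on the cordyceps array (left) and the sunitinib array (right), scaled to the 75th percentile. Points carry the combined error of 1 SD, an empty row has no ratio, and dashed lines mark 2-fold. Triangles are bounds pointing away from control, except for RET, where the triangle is the ratio to its undetected control signal. ERBB4 lies farthest to the right under sunitinib, with a bound of 3.70, and EPHB2 farthest to the left, at -1.40, while NTRK3 leads under cordyceps at 1.65. Both panels share the control array.

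Among the ERBB receptors, which bind EGF-like ligands, ERBB4 had the largest ratio of any receptor compared. This neuregulin receptor read 15.2 on the control and 9.58 on the cordyceps array, where it was not detected, and 113 on the sunitinib array. The ratio of sunitinib over control was at least 13.0-fold, and more than 2-fold in 10 of 10 alternative settings. From a bound of 3.70, the log2 ratio fell to 2.63 with no scaling, 1.72 with normexp and 1.26 with the mean of all probes. A second probe with the same accession was undetected on every array, at 3.80, 6.33 and 3.83, so the ratio rests on 1 probe. The other ERBB genes were inside the limit. EGFR read 961 on the control and 337 on the sunitinib array (log2 ratio -0.44 ± 0.21), and its 2 dimmer probes, designed on other accessions, gave -0.26 and 0.30. ERBB2, the partner without a known ligand, read 1238 and 681 (0.21 ± 0.06, but -0.12, -0.86 and -0.13 with median scaling, no scaling and normexp). ERBB3, which has a weak kinase, read 71.3 and 29.4 on the 1 of its 3 probes that was detected (-0.21 ± 0.32).

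In the insulin receptor family both detected genes, INSR and IGF1R, had a log2 ratio above 0 for sunitinib, which turned negative for IGF1R with no scaling (-0.17). INSR, which binds insulin, read 55.8 on the control, 45.9 on the cordyceps and 81.0 on the sunitinib array, a ratio of 3.05-fold for sunitinib (log2 ratio 1.61 ± 0.24). IGF1R, the receptor for IGF1 and IGF2, read 1150, 1002 and 1025, which gave 0.91 ± 0.20 for sunitinib and left it just outside the limit. INSR exceeded 2-fold in 9 of 11 alternative settings, and its ratio was 0.98 with normexp and 0.54 with no scaling. INSR had no second probe and was detected on both arrays, so alternatives on probe choice, filter or floor could not change its ratio. INSRR was undetected.

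FGFR2, an FGF receptor of epithelia, read 14.7 on the control and 6.23 on the cordyceps array, both undetected, and 31.3 on the sunitinib array, a ratio of at least 3.62-fold for sunitinib. Its second probe was undetected, and the call was lost with no scaling (0.78), normexp (0.89) and the mean of all probes (0.74). The other FGF receptors were inside the limit. FGFR1 read 482 on the control and 200 on the sunitinib array (-0.20 ± 0.21), FGFR3 read 127 and 78.8 (0.38 ± 0.22, but -0.69 with no scaling), and FGFR4 read 42.0 and an undetected 15.4 (a bound of -0.12).

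The TAM receptors AXL, MERTK and TYRO3, which bind GAS6 and PROS1 and take part in the clearing of dying cells, went different ways under sunitinib. MERTK read 12.6 on the control array, where it was not detected, and 34.9 on the cordyceps and 24.6 on the sunitinib array, where it was. These signals gave at least 2.84-fold for sunitinib, although the log2 ratio was 0.43 with no scaling and 0.90 with normexp. TYRO3 read 236, 268 and 65.9, with a log2 ratio of -0.77 ± 0.22 for sunitinib. AXL read 6585, 10064 and 3448, and its ratio for sunitinib was 0.14 ± 0.20, turning to -0.19 with median scaling, -0.23 with normexp and -0.93 with none.

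Receptors below the limit on the sunitinib array included both a hepatocyte growth factor receptor and an ephrin receptor. MET, the HGF receptor, read 14432 on the control, 13917 on the cordyceps and 3418 on the sunitinib array. The control and cordyceps arrays were close, and the sunitinib array was 2.01-fold lower than control after scaling (log2 ratio -1.004 ± 0.20). That is at the limit itself, passed by far less than the error of 0.20. The ratio of MET was past 2-fold in 11 of 11 alternatives, but this tally says little. MET had no second probe and was detected on both arrays, so alternatives on probe choice, filter or floor could not change it. Scaling to the 75th percentile of probes detected on every array left it at the limit. It was -1.06 with quantile normalization, -1.31 with normexp, -1.34 with median scaling and -2.08 with no scaling. MST1R, the related receptor for MST1, read 273 on the control and 79.0 on the sunitinib array (-0.72 ± 0.22).

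EPHB2, which binds B-type ephrins on neighboring cells and signals in cell sorting, read 6575 on the control, 2835 on the cordyceps and 1182 on the sunitinib array. The control array was the brightest and the sunitinib array the dimmest, and sunitinib over control was 2.64-fold lower (log2 ratio -1.40 ± 0.20, past 2-fold in 11 of 11 alternatives). The other EPHB2 probes gave -1.08 and -0.87. The remaining Eph receptors were inside the limit. EPHA2 read 326 on the control and 96.0 on the sunitinib array (-0.69 ± 0.21), and EPHB4 read 303 and 256 (0.83 ± 0.21, but -0.24 with no scaling and on its dimmer probe). EPHA4 and EPHB1 were detected on the control array, at 22.4 and 35.4, and not on the sunitinib array, and no ratio above the floor could be given.

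TIE1, an orphan receptor best known from endothelium, read 100 on the control and 133 on the cordyceps array and 6.11 on the sunitinib array, where it was not detected. Sunitinib was at least 2.60-fold lower, and the call was lost with normexp (-0.29). TEK, its partner and the angiopoietin receptor, was undetected. The endothelial marker CDH5 read 108, 79.7 and 60.4 on the 3 arrays, and VWF read 96.8, 73.4 and an undetected 14.9 on its brightest probe. After scaling, the log2 ratio of sunitinib over control was 0.23 for CDH5 and a bound of -1.33 for VWF. Whether endothelial genes at large moved with TIE1 was not tested.

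Of the Wnt-binding receptors 3 were compared for sunitinib, and 0 of them were past 2-fold. ROR1, a WNT5A receptor, read 1732 on the control, 1162 on the cordyceps and 412 on the sunitinib array (-0.999 ± 0.20), just outside the limit where MET was just inside it. ROR1 was past 2-fold in 4 of 11 alternatives: median scaling (-1.33), quantile normalization, no scaling (-2.07) and normexp (-1.25). The other ROR1 probes gave -1.12 and -0.66. RYK gave -0.16 ± 0.20 and the catalytically inactive PTK7 -0.31 ± 0.30, of which the former was smaller than its error and the latter about as large. Of the rest, DDR1, a collagen receptor, gave 0.28 ± 0.20 and LTK 0.03 ± 0.20, and both turned negative with median scaling, no scaling and normexp. NTRK3 was detected on the control and not on the sunitinib array, with no ratio.

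Promoters are shown for context for the 3 receptors past the limit under sunitinib that were detected on both arrays, EPHB2, MET and INSR, and for ERBB4, which had the largest ratio, as the 250 bases before the RefSeq start in GRCh38.p14, written 5′ to 3′ on the gene's strand. EPHB2 lies at chr1:22710589-22710838 (+) and MET at chr7:116671946-116672195 (+), both lower. INSR lies at chr19:7294415-7294664 (-) and ERBB4 at chr2:212538803-212539052 (-), both higher. Capitals mark GC boxes (GGGCGG on either strand), the site read by SP1-like factors, and those of INSR overlap.
EPHB2: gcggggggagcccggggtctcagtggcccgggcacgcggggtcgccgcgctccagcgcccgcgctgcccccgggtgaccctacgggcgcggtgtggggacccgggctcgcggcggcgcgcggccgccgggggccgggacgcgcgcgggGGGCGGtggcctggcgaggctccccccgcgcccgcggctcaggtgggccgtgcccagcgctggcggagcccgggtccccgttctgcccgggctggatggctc
MET: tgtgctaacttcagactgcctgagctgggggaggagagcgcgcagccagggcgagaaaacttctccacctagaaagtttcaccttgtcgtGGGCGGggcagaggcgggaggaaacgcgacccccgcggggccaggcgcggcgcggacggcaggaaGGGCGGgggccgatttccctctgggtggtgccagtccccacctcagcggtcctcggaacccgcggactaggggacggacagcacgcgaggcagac
INSR: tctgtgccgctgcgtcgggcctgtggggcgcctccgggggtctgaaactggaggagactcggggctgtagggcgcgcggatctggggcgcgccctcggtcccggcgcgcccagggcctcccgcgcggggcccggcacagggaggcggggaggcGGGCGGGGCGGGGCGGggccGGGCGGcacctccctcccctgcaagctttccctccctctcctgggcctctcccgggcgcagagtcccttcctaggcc
ERBB4: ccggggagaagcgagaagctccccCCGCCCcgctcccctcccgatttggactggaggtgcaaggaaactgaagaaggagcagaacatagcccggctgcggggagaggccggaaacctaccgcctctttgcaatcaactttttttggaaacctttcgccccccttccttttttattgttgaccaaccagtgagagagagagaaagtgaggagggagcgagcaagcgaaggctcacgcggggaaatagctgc

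These windows held 84.8% G and C in EPHB2, 78.4% in INSR, 68.4% in MET and 57.2% in ERBB4, against a median of 58.0% over 35116 RefSeq promoters. They had 41, 28, 24 and 14 CpG dinucleotides, against a median of 11. The GC box was present 1 time in EPHB2, 4 times in INSR, 2 times in MET and 1 time in ERBB4, and 42.6% of all promoters hold it. None of the 4 windows held CCAAT (32.0% of all promoters), TGANTCA (6.57%), CACGTG (6.34%), GTAAACA (2.98%) or TATAAA (10.7%) on either strand. Promoters of 45 of the 49 receptors were listed.

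In the cordyceps comparison, which shares the control array, 27 receptors were compared. Of these 2 were more than 2-fold higher, NTRK3 and MERTK, and 0 lower by that much, against 2.99% and 2.76% of 14776 genes, or 5.75% in either direction. The median log2 ratio was 0.08, against 0.00 for all genes, with 16 receptors above and 10 below control by any amount. For the receptors, the split of 2 higher and 0 lower became 6 and 0 with median scaling, and 1 and 2 with none. For all genes it moved from 442 higher and 408 lower to 746 and 223 with median scaling and to 273 and 833 with none. Of the 24 receptors detected on both arrays, 10 (41.7%) lay outside the 95% limit of their combined error, 7 of them higher and 3 lower, against 29.4% of all genes. Of these 24 receptors, 1 was more than 2-fold higher and 0 lower, against 323 and 307 of the 13027 genes detected on both arrays. MERTK was compared only because the cordyceps array detected it.

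NTRK3, the receptor for neurotrophin-3, had the highest ratio on the cordyceps array. It read 21.5 on the control, 56.5 on the cordyceps and an undetected 16.1 on the sunitinib array, a ratio of 3.14-fold for cordyceps (log2 ratio 1.65 ± 0.35). The control signal lay just over that array's floor of 18.2, and normexp brought the ratio to 0.70. The other NTRK3 probes, designed on other accessions, were undetected. MERTK was at least 2.29-fold higher, a bound that fell to 0.94 with no scaling and 0.69 with normexp.

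Of the 3 TAM receptors, MERTK was past 2-fold on the cordyceps array and the other two were not, with log2 ratios of 0.87 ± 0.20 for AXL and 0.44 ± 0.21 for TYRO3. The 3 ratios were positive under the 5 other scalings and corrections. EGFR read 961 on the control and 1596 on the cordyceps array, which gave 0.99 ± 0.20, just short of the limit. The EGFR ratio passed the limit with the streak left out (1.03) and with median scaling (1.21), and fell to 0.48 with the mean of all probes. Its dimmer probes gave 0.70 and -0.26, so the probes of EGFR did not move alike. FGFR1 read 482 and 735 (0.87 ± 0.21), and since this probe lay in the streak windows, its second probe, outside them, is given too, at 0.94. EPHB1 read 35.4 and 51.6 (0.80 ± 0.35), and TIE1 gave 0.66 ± 0.23.

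The receptors lower on the cordyceps array and outside the 95% limit of their combined error were EPHB2, FGFR3 and LTK. EPHB2 was 1.94-fold lower (-0.96 ± 0.20), just short of the limit, and its other probes gave -0.69 and -0.71. FGFR3, the FGF receptor of cartilage and urothelium, read 127 on the control and 57.3 on the cordyceps array (-0.90 ± 0.27), and LTK read 910 and 529 (-0.53 ± 0.21). These 3 ratios were negative under the 5 other scalings and corrections. MET (0.20 ± 0.20), INSR (-0.03 ± 0.30) and IGF1R (0.06 ± 0.20) were within that limit. So were ERBB2, ERBB3, EPHB4, DDR1, RYK, PTK7, ROR1, MST1R, FGFR4, EPHA2 and PDGFRB, with log2 ratios from -0.32 to 0.36. The only detected probe of ERBB3 lay in the streak windows, so with the streak left out ERBB3 had no ratio.

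**Figure D3:**
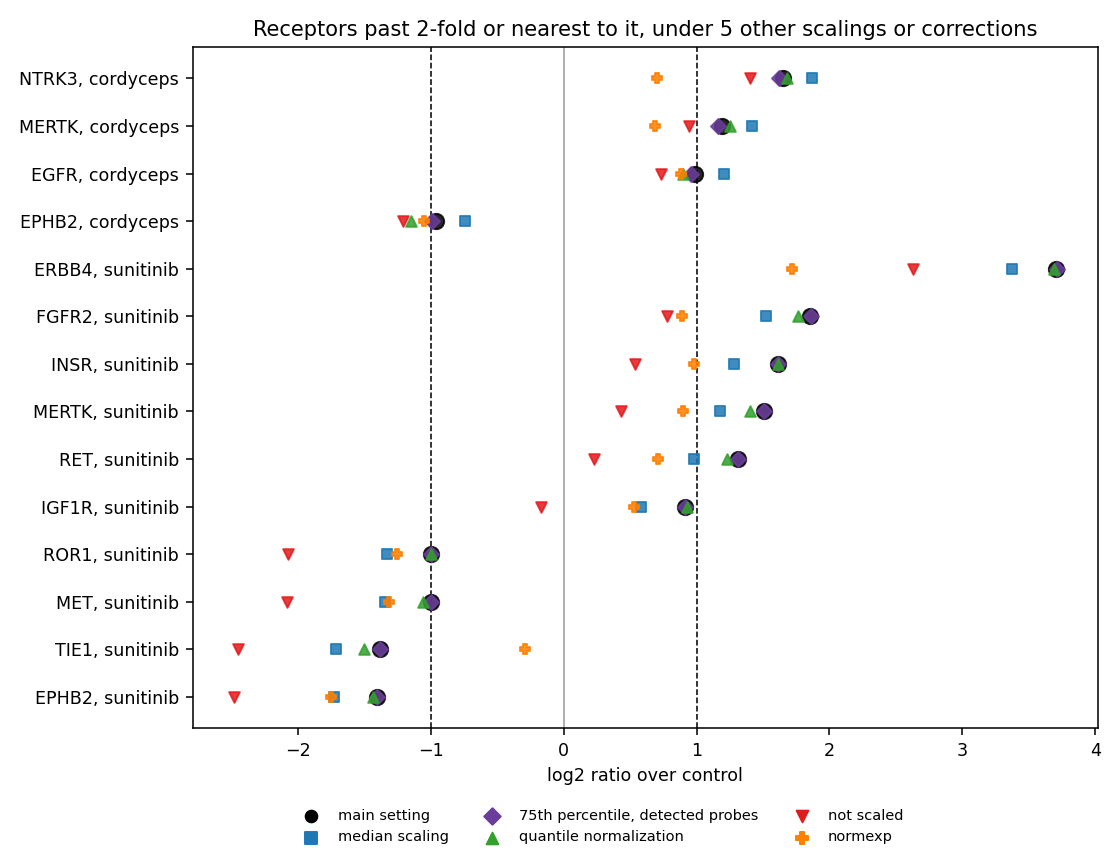
Log2 ratio over control (horizontal axis) of the receptors past 2-fold or nearest to it, under the setting used here (black) and 5 other scalings or background corrections, with dashed lines at 2-fold. ERBB4, EPHB2 and MET under sunitinib stay past the limit in each setting plotted, MET at it.

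The genes around the receptors were counted in the same way, from lists written by hand with earlier results of these data known. A share above that of all genes is therefore no independent support. Of 60 ligands, 43 were compared for sunitinib, and 5 stood more than 2-fold above control (11.6%) and 10 below it (23.3%), against 6.44% and 6.52% of all genes, with a median log2 ratio of -0.23. With median scaling the split was 2 and 15, with no scaling 1 and 24 and with normexp 1 and 9. The median in these settings was -0.56, -1.31 and -0.05. Without a filter on dim probes the split was 14 and 11 and the median turned to 0.21. The 6 lower ligands with the largest measured ratios were EREG, AREG, VEGFA, GDNF, ALKAL2 and NRG1. EREG, an EGFR ligand, read 2904 on the control and 199 on the sunitinib array (-2.79), and AREG, another, read 329 and 26.7 (-2.55). VEGFA, the ligand of KDR, read 3177 and 293 (-2.37). GDNF, which signals through RET, gave -2.20, ALKAL2, a ligand of ALK and LTK, -2.10, and the neuregulin NRG1, a ligand of ERBB3 and ERBB4, -1.34.

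The higher ligands were IGF1, KITLG, PGF, VEGFB and PSPN. IGF1 was undetected at 3.99 on the control array and read 93.2 on the sunitinib array (a bound of 3.43 or higher), while its second probe was undetected on both. KITLG, the ligand of KIT, gave 1.46, and the FLT1 ligands PGF and VEGFB gave 1.19 and 1.16 and the RET ligand PSPN 1.05. For cordyceps, 42 ligands were compared and 0 passed the limit in either direction, with a median of -0.15 that became 0.02 with median scaling.

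Of 15 co-receptors compared, 1 was higher for sunitinib, the glypican GPC3 (1.57), and 2 lower, the VEGF co-receptor NRP1 (-1.67) and the syndecan SDC4 (-1.15), which is 6.67% and 13.3%, against 6.44% and 6.52% of all genes. The split was 1 and 4 with median scaling, 1 and 4 with normexp and 0 and 9 with no scaling. For cordyceps 0 co-receptors passed. Of 43 adaptors and effectors, IRS2, the adaptor of INSR and IGF1R, was higher for sunitinib, with signals of 941 and 1406 (1.65), and SHC3 lower (-1.04), or 2.33% in each direction. The median was 0.02. The count of 1 lower became 0 with normexp and with the mean of all probes, so that the SHC3 call was lost, 6 with median scaling and 23 with no scaling, where the count higher was 0. For cordyceps PLCG2 stood at 2.86, but this probe lay in the streak, and the PLCG2 probe outside it gave 0.03.

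Of 30 negative regulators, 1 was higher for sunitinib, SOCS5 (1.08), and 3 were lower. The latter were UBASH3B (a bound of -1.96), the MAPK phosphatase DUSP5 (-1.82) and LRIG1, which brings about degradation of ERBB receptors (-1.18). For DUSP5 the undetected signal on the sunitinib array lay above the floor and was used itself. These are 3.33% and 10.0% of the list, against 6.44% and 6.52% of all genes. The split was 0 and 6 with median scaling, 0 and 24 with no scaling and 0 and 2 with normexp, so the SOCS5 call was lost in each of these. The median log2 ratio was -0.42, against 0.00 for all genes. For cordyceps 2 were higher, or 6.67% against 2.99% of all genes, and with the streak left out 1 was. DUSP5 gave 1.23, and CBLB gave 2.36 on a probe in the streak, while its probe outside the streak gave a bound of -0.72. Of 9 receptor tyrosine kinases outside the members, 4 were compared, and for sunitinib 2 of them were lower, STYK1 (-1.22) and LMTK3 (-1.05), against 6.52% of all genes, with 0 lower under normexp and 4 with median scaling or none.

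**Figure D4:**
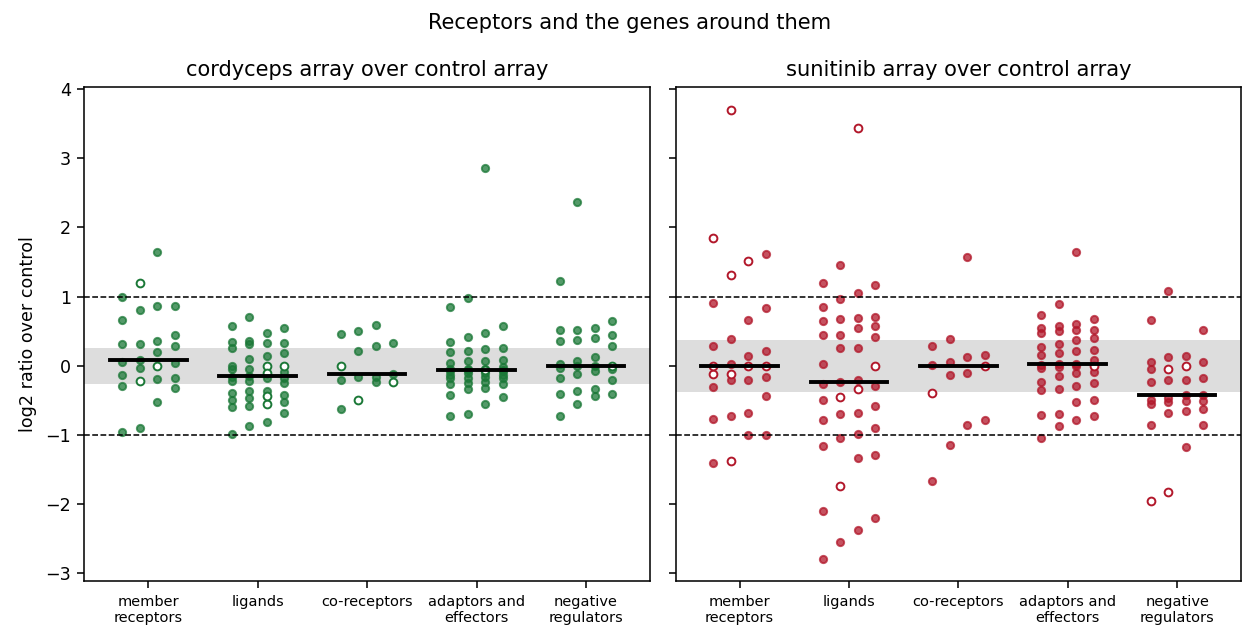
Log2 ratio over control (vertical axis) of every compared gene among the 49 receptors and the lists around them, for cordyceps (left) and sunitinib (right). The receptor tyrosine kinases outside the members are not plotted. Open points are genes undetected on 1 array, at a bound or at the ratio of their signals, or genes without a ratio placed at 0. Black lines are medians, dashed lines mark 2-fold, and the grey band holds the middle 50% of all genes. Under sunitinib the ligands reach from -2.79 to a bound of 3.43, and the adaptors stay between -1.04 and 1.65. The highest points under cordyceps, PLCG2 at 2.86 and CBLB at 2.36, are probes in the streak.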

How the data were processed

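Cy3-labeled RNA of 3 TK-10 cultures had been hybridised to 3 single-colour arrays on 1 slide, read in 1 scan. The authors deposited Feature Extraction 11.5.1.1 output, in which the processed signal is an intensity on a linear scale after background subtraction, with hg19 as the build of the design. Their table of processed intensities equalled these signals, to within 0.01%, in 99.87% to 99.92% of probes, and was not scaled between arrays. Whatever the study's methods say of another, 2-colour array does not describe these files.

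From the deposited intensity, control spots and outlier spots (63 to 121 per array) were removed, repeated spots averaged, and log2 of the signal taken less the array's 75th percentile. No spot was saturated. Probes were named by accession through a RefSeq table (GRCh38.p14), and a gene was represented by the probe whose mean signal over the 3 arrays was highest. A gene was compared where 1 or both of the 2 arrays had that probe well above background. A dimmer side that was not was raised to the lowest signal among detected probes, 18.2 on the control, 30.2 on the cordyceps and 18.3 on the sunitinib array, and the ratio is a bound. If its own signal was higher it was kept, and the ratio is that of the 2 signals, as for RET and DUSP5 under sunitinib. Where either was not above 1 the gene has no ratio and counts as 0 in medians. A change is a ratio of more than 2-fold.

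The values given per array are those of the sunitinib targets, of every receptor past 2-fold, and of those nearest to the limit, with the other receptors by family. In the lists every gene past 2-fold is named, or the 6 with the largest measured ratios. The members and lists were chosen with earlier results of these data known. There were 12 alternatives for the counts and 4 for detection. The number of arrays limits the precision. Ratios were computed in Python 3.11.15 (pandas 2.3.3, numpy 2.4.6, figures by matplotlib 3.10.9) and normexp, with an offset of 50, in limma 3.58.1 under R 4.3.3. The steps were tested on simulated arrays in which only bright genes were changed, each by well over 2-fold. That simulation does not cover changes in dim or undetected probes, or changes near the limit.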

Additional observations from a re-analysis of the deposited data

How the results depend on the processing

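Under the alternatives there were 338 values of 33 results. Of these, 258 moved by less than the error of the ratio, or by no more than 1.5 times for counts. Another 80 moved further, and 0 changed sign among receptors past 2-fold. Part of the 258 could not move. Alternatives on probe choice, filter or floor leave the ratio of a receptor with 1 probe, detected on both arrays, as it was. The tally therefore says little about how firm a ratio is. For cordyceps, the 2 receptors more than 2-fold higher became 6 with median scaling, 3 with the streak left out, 1 with no scaling and 0 with normexp. They became 1 where both arrays had to be well above background, and 7 with no filter on dim probes. The count of 0 lower became 1 with quantile normalization, 2 with no scaling, 1 with normexp and 1 with no filter, and the median of 0.08 became 0.30 with median scaling and 0.32 with no filter. For sunitinib, the 5 higher became 1 with no scaling, 1 with normexp, 3 with the mean of all probes of a gene, 1 where both arrays had to be well above background, and 19 with no filter. The 3 lower became 7 with median scaling and 15 with no scaling, and the median of 0.00 became -0.25 with median scaling, -0.99 with no scaling and 0.66 with no filter. Requiring both arrays above background removes every bound, and applying no filter admits undetected probes. The causes of the other shifts were not tested. Counting probes positive and significant against background raised the detected receptors from 26 to 38 on the control array. On the cordyceps array the count rose from 25 to 34 and on the sunitinib array from 24 to 35. Under every detection alternative the counts stayed within 1.5 times. No paired analysis was possible because each group had 1 array. Signal over background limits several receptors. A bound is the most that can be given for CSF1R and MERTK in both comparisons, and for ERBB4, FGFR2, FGFR4 and TIE1 under sunitinib. The RET ratio under sunitinib is to an undetected control signal. EPHA4 has no ratio in either comparison, and EPHB1 and NTRK3 have none for sunitinib.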
